A study of Homo sapiens with 2 samples.

Results

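The mitochondrial ribosomal protein genes are the 78 protein-coding genes of the GENCODE release 44 annotation (hg38) whose symbols start with MRPL or MRPS followed by a digit, out of 20033 protein-coding genes in all. Of these, 49 carry a large-subunit symbol (MRPL) and 29 a small-subunit symbol (MRPS), and they lie on 21 chromosomes. The data were ATAC-seq peak lists from CAMA-1, a luminal breast cancer cell line described as epithelial, which was left untreated and grown adherent in DMEM with 10% FBS and antibiotics. ATAC-seq uses the Tn5 transposase to cut and tag accessible DNA, so that reads pile up over open chromatin. Nuclei of 50000 cells were used for each of 2 biological replicates of this single condition, and no second condition, genotype or treatment was measured. Membership follows from the gene symbol and uses no measured value.

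Mammalian mitochondria translate a small set of membrane proteins of the respiratory chain and ATP synthase from their own DNA, on a ribosome of their own. The RNAs of that ribosome come from mitochondrial DNA, but every one of its proteins is encoded in the nucleus, made in the cytosol and imported. Promoters of such nuclear genes are mostly CpG rich and without a TATA box, and ETS-family factors (GABPA among them), NRF1 and YY1 are the regulators best known for binding them. Many of these genes start back to back with another gene, so that a single open region serves a pair of transcripts that run apart.

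Replicate 1 held 245736 peaks and replicate 2 held 259745. The strength of a peak is its fold enrichment, the read pile-up at its summit over a background that proved to be a single value for each replicate (3.35 and 3.52 reads). It is thus a rescaled summit height, with no correction for differences between loci or for copy number. Over all peaks its median was 8.28 in replicate 1 and 7.96 in replicate 2, with no listed peak under 2.76 and 2.65. A TSS peak is a peak within 1 kb of any annotated transcription start site (TSS) of a gene, and where a gene had several the strongest was used. The reference TSS is the start of the MANE Select transcript, the transcript that GENCODE and RefSeq agreed on as the representative of a gene. All 10 luminal breast epithelial markers examined (ESR1, GATA3, FOXA1 and KRT8 among them) had a TSS peak in both replicates, with a median of 87.1 and 88.1, whereas PTPRC, CD3E and SPI1 of the 5 blood markers and PECAM1 of the 2 endothelial markers had none. With a single condition no test between groups was possible, and genes are not replicates of each other, so every comparison below is descriptive and gives the value in each replicate.

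The DNA around the start is shown first for 10 promoters, each as 300 bases from 250 before to 50 after the start, read 5′ to 3′ on the strand of the gene, from RefSeq (GRCh38.p14). RefSeq promoter entries matched 69 of the 78 members. MRPL10, MRPL13, MRPL15, MRPL2, MRPL21, MRPL23, MRPL35, MRPS28 and MRPS36 were not matched. Capitals mark exact matches, on either strand, to the ETS letters CCGGAAG or the YY1 letters AAGATGGC, which are written as CTTCCGG and GCCATCTT where they lie on the opposite strand. The promoters of MRPL41, MRPL24 and MRPL32 are shown because these members had the highest peaks by mean rank over both replicates, and that of MRPL45 because it had the lowest mean rank among members with an entry. The proteins of MRPL24, MRPL32 and MRPL41 belong to the large subunit, and the protein of MRPL45, also of the large subunit, anchors the ribosome to the inner membrane.
MRPL41, chr9:137551629-137551928, plus strand: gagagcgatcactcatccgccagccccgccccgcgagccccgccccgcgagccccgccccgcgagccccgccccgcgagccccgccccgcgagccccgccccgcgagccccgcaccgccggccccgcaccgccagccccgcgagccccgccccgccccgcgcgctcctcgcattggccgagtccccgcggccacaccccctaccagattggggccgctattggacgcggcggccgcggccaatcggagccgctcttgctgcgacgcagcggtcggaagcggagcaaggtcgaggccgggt
MRPL24, chr1:156741039-156741338, minus strand: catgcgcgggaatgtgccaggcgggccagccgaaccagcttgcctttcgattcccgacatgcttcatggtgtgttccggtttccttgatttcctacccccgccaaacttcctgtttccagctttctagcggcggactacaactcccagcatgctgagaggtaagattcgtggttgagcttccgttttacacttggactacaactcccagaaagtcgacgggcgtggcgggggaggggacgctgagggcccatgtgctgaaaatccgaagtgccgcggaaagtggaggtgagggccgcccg
MRPL32, chr7:42932126-42932425, plus strand: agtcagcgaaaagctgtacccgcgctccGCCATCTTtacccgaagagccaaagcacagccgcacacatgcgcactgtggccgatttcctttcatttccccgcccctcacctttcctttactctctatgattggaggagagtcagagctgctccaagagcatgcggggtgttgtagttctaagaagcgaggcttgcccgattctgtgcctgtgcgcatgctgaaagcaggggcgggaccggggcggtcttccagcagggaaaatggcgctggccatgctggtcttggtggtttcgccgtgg
MRPL45, chr17:38296918-38297217, plus strand: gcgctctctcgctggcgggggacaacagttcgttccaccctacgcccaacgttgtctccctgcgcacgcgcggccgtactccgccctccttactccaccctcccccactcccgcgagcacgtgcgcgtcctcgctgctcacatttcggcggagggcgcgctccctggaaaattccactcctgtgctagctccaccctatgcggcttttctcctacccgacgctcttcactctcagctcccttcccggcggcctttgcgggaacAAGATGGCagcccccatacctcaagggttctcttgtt
The ranking peak of MRPL41 lies before its window, and a weaker one covers the window itself (values given below). The MRPL41 window was 80.7% G and C, built around a repeated run of ccccgcgagc, and the MRPL24 and MRPL32 windows were 58.7% and 58.3%. The MRPL45 window carried the YY1 letters just after the start, and the MRPL32 window carried them 222 bases before it on the opposite strand.

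The promoters of MRPL27, MRPL43 and MRPL14, all of large-subunit genes, are shown because, among members with a RefSeq entry, a coding gene on the other strand starts closest to them. EME1, a subunit of a DNA repair endonuclease, starts 45 bp from MRPL27, TWNK, the helicase of mitochondrial DNA replication, starts 46 bp from MRPL43, and the RefSeq start of MRPL14 lies 144 bp from its reference TSS, which in turn is 102 bp from TMEM63B.
MRPL27, chr17:50373135-50373434, minus strand: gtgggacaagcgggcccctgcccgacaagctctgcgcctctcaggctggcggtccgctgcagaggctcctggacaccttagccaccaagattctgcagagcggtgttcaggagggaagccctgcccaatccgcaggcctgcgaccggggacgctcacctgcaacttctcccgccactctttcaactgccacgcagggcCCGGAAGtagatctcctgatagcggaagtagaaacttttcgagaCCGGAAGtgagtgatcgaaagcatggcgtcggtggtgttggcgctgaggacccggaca
MRPL43, chr10:100987448-100987747, minus strand: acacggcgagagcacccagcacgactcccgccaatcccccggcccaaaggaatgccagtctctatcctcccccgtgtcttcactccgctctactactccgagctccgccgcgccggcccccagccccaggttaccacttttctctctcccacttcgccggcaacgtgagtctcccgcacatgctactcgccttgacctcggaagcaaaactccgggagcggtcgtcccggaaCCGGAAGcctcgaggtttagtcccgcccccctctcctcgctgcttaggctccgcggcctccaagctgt
MRPL14, chr6:44127259-44127558, minus strand: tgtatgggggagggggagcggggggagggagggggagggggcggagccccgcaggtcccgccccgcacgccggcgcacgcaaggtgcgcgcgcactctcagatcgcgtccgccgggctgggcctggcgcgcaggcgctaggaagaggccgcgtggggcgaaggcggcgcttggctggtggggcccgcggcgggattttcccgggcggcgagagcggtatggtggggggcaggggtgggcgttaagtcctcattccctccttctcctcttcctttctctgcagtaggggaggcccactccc
The MRPL27 window held 2 copies of the ETS letters and the MRPL43 window held 1, in each case between the divergent starts or just beside them. The MRPL14 window held neither motif.

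A further 3 promoters were chosen after their values were seen. That of MRPL46 is shared with MRPS11 and is the only place where members of both subunits start back to back, that of MRPS12 is shared with SARS2, the mitochondrial seryl-tRNA synthetase, and that of MRPS22 held 3 ETS matches, the highest number among the members and shared with MRPS34.
MRPL46, chr15:88467339-88467638, minus strand: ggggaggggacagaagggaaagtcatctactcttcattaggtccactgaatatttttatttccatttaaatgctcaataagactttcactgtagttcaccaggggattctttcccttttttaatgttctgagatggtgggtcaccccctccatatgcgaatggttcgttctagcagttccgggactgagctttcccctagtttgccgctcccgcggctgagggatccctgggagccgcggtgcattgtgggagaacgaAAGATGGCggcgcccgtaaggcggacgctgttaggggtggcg
MRPS12, chr19:38930694-38930993, plus strand: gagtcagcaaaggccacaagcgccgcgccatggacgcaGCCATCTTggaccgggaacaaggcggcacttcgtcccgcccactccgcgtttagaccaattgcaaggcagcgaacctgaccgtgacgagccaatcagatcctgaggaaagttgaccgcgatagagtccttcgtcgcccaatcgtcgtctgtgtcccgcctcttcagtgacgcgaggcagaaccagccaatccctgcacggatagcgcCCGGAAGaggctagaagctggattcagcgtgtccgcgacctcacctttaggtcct
MRPS22, chr3:139343770-139344069, plus strand: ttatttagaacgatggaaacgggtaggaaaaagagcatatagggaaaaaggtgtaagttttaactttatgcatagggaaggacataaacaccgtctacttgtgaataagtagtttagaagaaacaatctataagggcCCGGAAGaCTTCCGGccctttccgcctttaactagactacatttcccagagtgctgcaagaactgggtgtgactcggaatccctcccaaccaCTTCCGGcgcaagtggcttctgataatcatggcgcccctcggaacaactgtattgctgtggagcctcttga
The MRPS22 matches were a facing pair separated by a single base and another copy closer to the start. MRPS12 carried both motifs, and MRPL46 carried the YY1 letters just after its start.

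Of the 78 members, 77 had a TSS peak in both replicates (98.7%, 95% Wilson interval 93.1 to 99.8%, counting error only), against 79.3% of all protein-coding genes. The reference TSS itself lay under a peak in both replicates in the same number of members, 77 (98.7%), against 65.0% of all protein-coding genes. All 29 MRPS genes and 48 of the 49 MRPL genes had such a peak. The members were thus open at their annotated start more often than protein-coding genes as a whole. The families nearest in function were similar in this respect. A TSS peak in both replicates was found for 83 of 86 cytosolic ribosomal protein genes, 48 of 48 NDUF genes (respiratory complex I subunits and assembly factors) and 38 of 40 proteasome subunit genes.

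MRPL23 was the only member with no TSS peak in either replicate. It lies on chr11:1947278-1984522 on the plus strand, with its reference TSS at 1947332, and encodes a protein of the large subunit near the exit of the nascent chain. Upstream of the start the closest peak, at a fold enrichment of 11.7 and 10.8, left a gap of 2875 bp in replicate 1 and 2885 bp in replicate 2. The nearest peak after it began 6206 bp into the gene in both replicates and was weaker, 8.05 and 7.52. The region itself was not empty of peaks, since 19 and 17 peaks lay within 100 kb. The lists hold only peaks that passed the threshold of the caller, so accessibility of the MRPL23 start was not detectable here, which is not the same as absent.

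Strength varied more than 8-fold among the members. The median fold enrichment was 55.2 in replicate 1 and 62.8 in replicate 2 (59.0 ± 5.36, SD, n = 2), with quartiles of 44.2 and 91.6 in replicate 1 and 42.01 and 92.0 in replicate 2, and extremes of 14.5 and 160.6 in replicate 1 and 18.6 and 165.6 in replicate 2. Over all protein-coding genes with a TSS peak the median was 51.1 and 52.6, so the members stood at 1.08 and 1.19 times that value, and 46 and 45 of the 77 lay above it. This excess is small beside the range of the members. The weak tail was thinner, since the lower quartile of the members, 44.2 and 42.01, lay well above that of all genes, 26.9 and 27.4. The upper quartile of the members, 91.6 and 92.0, was also above that of all genes, 82.1 and 83.8. Above that upper quartile of all genes lay 27 and 25 of the 77 members.

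**Figure D1:**
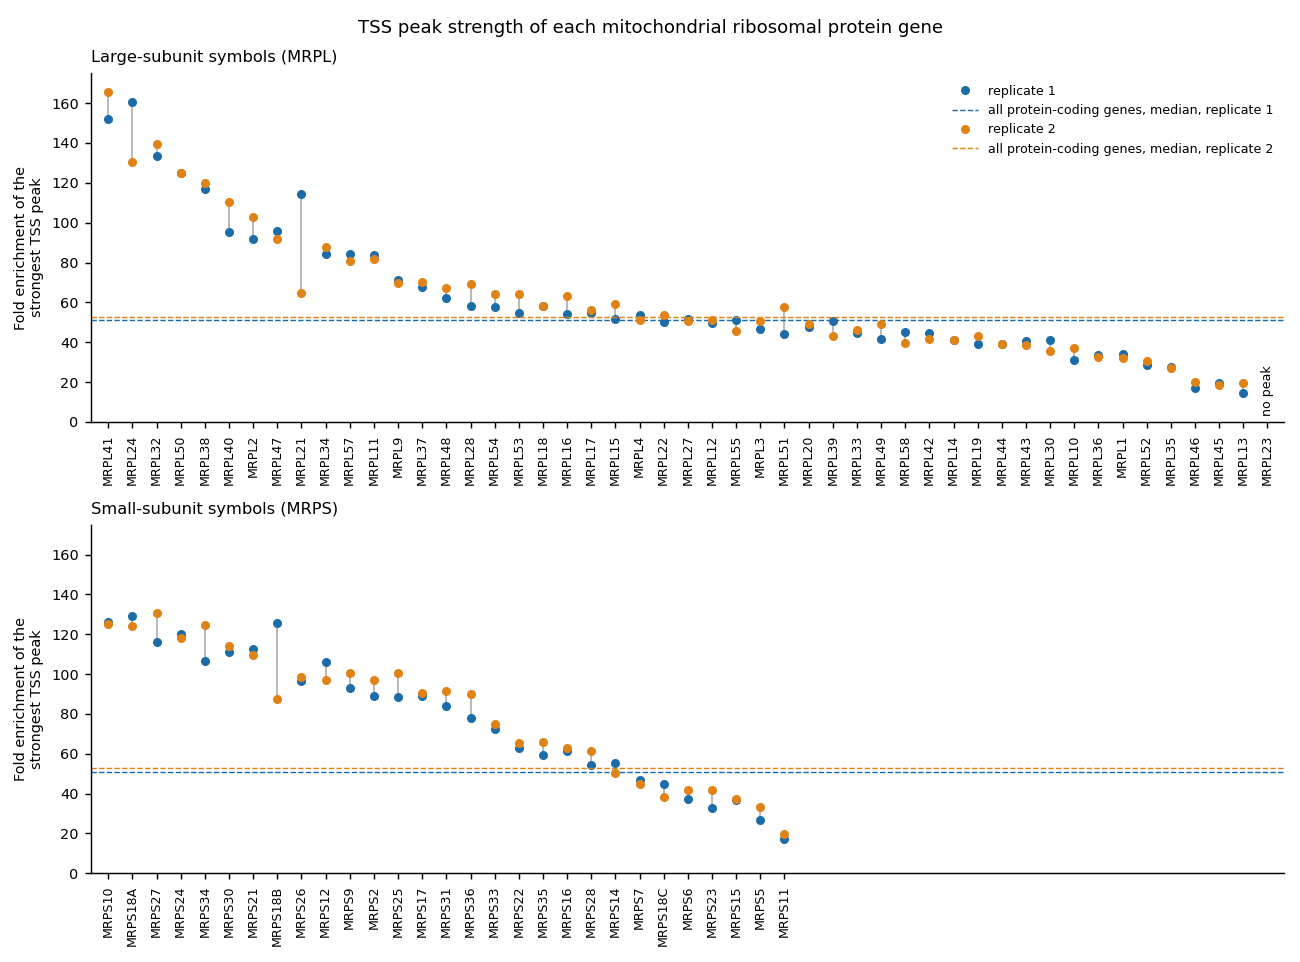
Fold enrichment of the strongest TSS peak (linear axis) for each member, ordered by mean rank within each subunit symbol, with a point for each replicate and a grey line joining the 2. Dashed lines mark the median of all protein-coding genes with a TSS peak, 51.1 and 52.6. MRPL41 and MRPL24 head the upper panel, MRPS10 and MRPS18A the lower, and MRPL23 has no peak.

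The strongest members were drawn from both subunits. MRPL41 had 151.9 in replicate 1 and 165.6 in replicate 2, and MRPL24 had 160.6 and 130.5. MRPL32, whose protein must be processed by an inner-membrane protease before it can join the ribosome, had 133.2 and 139.5. These values placed the 3 genes between percentile 92.7 and percentile 97.5 of all protein-coding genes with a peak. Among MRPS genes, MRPS10 had 126.1 and 125.4, and MRPS18A had 129.1 and 124.1, although the protein of MRPS18A sits in the large subunit despite its symbol. MRPL50, one of the proteins found only in mitochondrial ribosomes, had 124.9 and 124.7. The remaining members of the top 10 were MRPS27 (116.2 and 130.7), MRPS24 (120.1 and 117.9), MRPL38 (117.1 and 119.9) and MRPS34 (106.5 and 124.5).

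For 3 members the strongest peak within reach of a TSS did not lie over the reference TSS, and their rank depends on it. The strongest peak of MRPL41, chr9:137549760-137550893 in replicate 1, ended just under 1 kb before its start and also lay within reach of a TSS of PNPLA7. The peak over the MRPL41 start itself had 77.8 and 78.3. MRPS27, a pentatricopeptide-repeat protein of the small subunit, has 30 annotated starts, and its strongest peak lay more than 11 kb inside the reference transcript, whereas the peak over its reference TSS had 97.6 and 83.4. MRPL34 was the only member whose strongest peaks in the 2 replicates did not overlap. Its strongest peak lay near one of its starts and also within 1 kb of a TSS of ABHD8 in replicate 1 (84.4) and at a start more than 10 kb away in replicate 2 (88.0), and over its reference TSS it had 65.6 and 61.0. Counted by the peak over the reference TSS, the members had a median of 55.2 and 61.5 against 52.2 and 54.0 for all protein-coding genes, and MRPL24 and MRPL32 took the highest places.

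The weakest members were reproducibly weak. MRPL13 had 14.5 and 19.5, MRPL45 had 19.6 and 18.6, and MRPL46 and MRPS11, which share a peak, had 17.3 and 19.9. In reads at the summit, recovered from the fold enrichment, the MRPL45 peak was 84 reads high in replicate 1 (exact Poisson 95% interval 67.0 to 104.0) and 83 in replicate 2 (66.1 to 102.9), against 697 (646.2 to 750.7) and 589 (542.4 to 638.5) for MRPL24, intervals that cover counting error only. The weakest and strongest members thus differed far beyond counting error and beyond the spread of the replicates. Next above them stood MRPL35 (27.4 and 27.2), MRPL52 (28.8 and 30.5), MRPS5 (26.9 and 33.2), MRPL1 (34.1 and 31.8), MRPL36 (33.6 and 32.7) and MRPL10 (31.3 and 37.1). The list holds proteins of the conserved core, such as MRPL1 and MRPL10 of the mobile stalks of the large subunit and MRPS5 and MRPS11 of the small subunit, as well as mitochondria-specific ones such as MRPL45, MRPL46 and MRPL52.

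In the median, MRPS genes had stronger TSS peaks than MRPL genes. The median of the 29 MRPS genes was 83.8 in replicate 1 and 90.2 in replicate 2, and that of the 48 MRPL genes with a peak was 51.4 and 52.4. The MRPL genes therefore sat at the median of all protein-coding genes (1.01 and 0.996 times), and the MRPS genes at 1.64 and 1.71 times it. Above that median lay 22 and 21 of 29 MRPS genes but 24 and 24 of 48 MRPL genes, and above the upper quartile of all genes lay 15 and 16 MRPS genes but 12 and 9 MRPL genes. The ranges overlapped almost wholly, from 17.3 to 129.1 for MRPS and from 14.5 to 160.6 for MRPL in replicate 1, and MRPL41, MRPL24 and MRPL32 exceeded every MRPS gene in replicate 1. The ratio of the MRPL median to the MRPS median was 0.614 in replicate 1 and 0.581 in replicate 2.

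The difference became smaller under 2 other ways of grouping or scaling the genes. With each fold enrichment divided by the median of protein-coding genes on its chromosome, the MRPS median was 1.49 and 1.56 and the MRPL median 1.02 and 1.03. MRPS18A and MRPS30 encode proteins found in the large subunit, and MRPS36 encodes a component of the 2-oxoglutarate dehydrogenase complex and no ribosomal protein. With genes placed by the subunit that holds the protein, a grouping made after the values were seen, the 26 small-subunit genes had a median of 78.0 and 81.4 and the 50 large-subunit genes with a peak 51.8 and 55.0. Grouped by origin, genes whose proteins have bacterial homologs had a median of 54.3 and 56.4, and those of mitochondria-specific proteins 62.4 and 65.7.

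**Figure D2:**
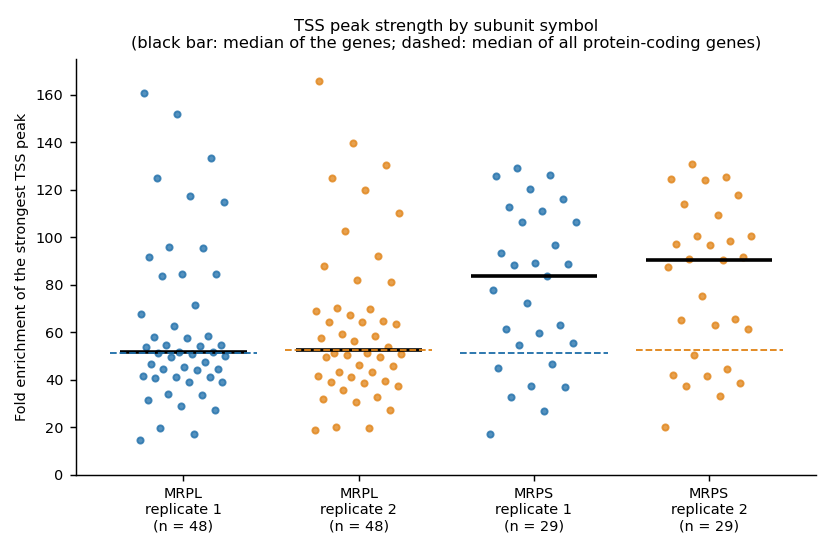
Fold enrichment of the strongest TSS peak (linear axis) for MRPL and MRPS genes in each replicate, with a point per gene, a black bar at the median of the group and a dashed line at the median of all protein-coding genes. The MRPL medians, 51.4 and 52.4, sit on the dashed lines and the MRPS medians, 83.8 and 90.2, above them, with wide overlap of the points.

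The replicates gave closely similar values for the members. The fold enrichment differed by less than 1.2-fold in 70 of 77 members, against 85.7% of all genes with a peak in both replicates, and Spearman's ρ between replicates was 0.97 over the 77 members, which share the 2 libraries. The strongest peaks overlapped between replicates in 76 of 77 members, and in 73 each covered at least 50% of the other. The median shift of a peak edge was 24 bp at the lower coordinate and 30 bp at the upper. The 7 members outside 1.2-fold were MRPL21 (114.6 and 64.6), MRPS18B (125.9 and 87.6) and MRPL24, which were lower in replicate 2, and MRPL13, MRPL51 (44.2 and 57.7), MRPS23 (32.7 and 42.01) and MRPS5, which were higher. In MRPL21 and MRPS18B the width changed together with the strength. The MRPL21 peak was 3103 bp wide in replicate 1 and 1358 bp in replicate 2, and the MRPS18B peak was 3781 bp and 1670 bp, so that for both genes a long peak in replicate 1 was listed as a shorter one in replicate 2. In replicate 2 the divergent partners of these genes, IGHMBP2 and PPP1R10, had a stronger peak of their own (102.6 and 128.3). The part that joining of neighbouring peaks by the caller played in these ratios was not tested.

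TSS peaks of the members were slightly narrower than those of other genes. Their median width was 950 bp in replicate 1 and 964 bp in replicate 2, against 1029 and 1035 bp over all protein-coding genes. The widest was that of MRPS34, 5718 and 5475 bp, which ran across MRPS34 and came within 1 kb of TSSs of the neighbouring EME2 and NME3. It was followed by MRPS18B, by MRPS2 (2588 and 2729 bp), by MRPL12 (2643 and 2526 bp), whose protein forms the stalk that recruits translation factors, and by MRPL40 (2535 and 2517 bp). Each of these 5 wide peaks also lay within 1 kb of a TSS of another coding gene. The narrowest were those of MRPL28 (388 and 396 bp), MRPL45 (458 and 537 bp) and MRPL35 (513 and 480 bp). MRPL52 (561 and 520 bp) and MRPL20 (622 and 550 bp) came next. Of these 5 narrow peaks, only that of MRPL52 lay within 1 kb of a TSS of another coding gene, SLC7A7. Among the members as a whole, 33 of 77 (42.9%) had their strongest peak so placed in both replicates. None of the 5 narrowest has a divergent coding partner, but neither do MRPS34 and MRPL12 among the widest. Width and strength were only loosely related over the 77 members (Spearman's ρ of 0.34 and 0.20).

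A divergent partner, a gene on the opposite strand whose reference TSS lies 0 to 1000 bp before that of the member, was annotated for 30 of the 78 members (38.5%, 28.4 to 49.6%), against 19.8% of all protein-coding genes. For 26 members (33.3%, 23.9 to 44.4%) the partner was itself protein-coding, against 9.46% of all protein-coding genes. The other 4, MRPL12, MRPS16, MRPS30 and MRPS35, had a long noncoding RNA as partner. Measured in the same way, coding partners were annotated for 35.4% of NDUF genes, 15.1% of cytosolic ribosomal protein genes and 12.5% of proteasome genes, shares that were not tested against each other. The median distance between the 2 starts was 187 bp over the 25 distinct coding pairs, and it ran from 45 bp for MRPL27 and EME1 to 990 bp for MRPL54 and APBA3.

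Several partners have mitochondrial roles of their own. Beside TWNK and SARS2 these were NDUFB5, a subunit of complex I, which starts 156 bp from MRPL47, and PTCD2, a pentatricopeptide-repeat protein of mitochondrial RNA processing, 133 bp from MRPS27. The peak of MRPL47 and NDUFB5 had 95.9 in replicate 1 and 92.0 in replicate 2, that of MRPS12 and SARS2 106.3 and 96.9, and that of MRPL43 and TWNK only 40.7 and 38.5. Pairs with mitochondrial partners thus spanned strong and weak promoters. MRPL46 and MRPS11, whose starts are 320 bp apart, were the only pair of members, and shared the weak peak given above. Another partner belongs to cytosolic translation, FAU, a ubiquitin-like protein fused to a protein of the cytosolic small subunit, 187 bp from MRPL49 (41.4 and 49.3).

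The remaining partners covered many functions. Cell division and DNA metabolism were represented by SKA3 of the kinetochore beside MRPL57 (84.4 and 80.9), NCAPD2 of condensin beside MRPL51, the helicases HELQ beside MRPS18C (44.9 and 38.5) and IGHMBP2 beside MRPL21, EME1 beside MRPL27 (51.8 and 50.4), MITD1 beside MRPL30 (41.0 and 35.8) and MTBP beside MRPL13. The histone chaperone HIRA lay beside MRPL40 (95.3 and 110.1) and the chaperonin subunit TCP1 beside MRPL18 (58.2 and 58.2). The others were LRRC46 (MRPL10), TMEM63B (MRPL14), KLC4 (MRPL2, 91.6 and 102.6), a gene named only ENSG00000256646 (MRPL32, whose peak also lay within 1 kb of a TSS of the proteasome subunit gene PSMA2), CYB5RL (MRPL37, 67.6 and 70.1), ZNF189 (MRPL50), APBA3 (MRPL54, 57.5 and 64.3), PPP1R10 (MRPS18B), PIERCE1 (MRPS2, 89.0 and 97.1) and GGA3 (MRPS7, 46.7 and 44.7).

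A single peak spanned both starts in both replicates for 25 of the 26 members with a coding partner (96.2%), the exception being MRPL54, against 91.0% of all 1895 protein-coding genes with such a partner. In 21 of the 26 (80.8%, against 82.7%) the strongest TSS peak of the member was also that of the partner in both replicates, so their values cannot be told apart. In both respects the members were near the share of all such genes. The exceptions were MRPL14, MRPL21, MRPS18B, MRPS27 and MRPS7. MRPL14 differed most from its neighbour, with 41.2 and 40.9 against 156.9 and 151.5 for TMEM63B at another of its starts. More widely, in 33 members (42.9% of 77) the strongest peak lay within 1 kb of a TSS of another coding gene in both replicates, against 24.2% of all protein-coding genes with a TSS peak in both.

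Members with a divergent partner of any kind had wider peaks but not much stronger ones. Their median fold enrichment was 58.9 in replicate 1 and 63.6 in replicate 2, against 54.5 and 61.5 for the other members, a ratio of 1.08 and 1.03 that is small beside the range of the members. Over all protein-coding genes the same split gave 62.8 and 64.6 against 47.2 and 48.4. The median width of the members was 1148 and 1144 bp with a partner and 895 and 931 bp without one, and over all protein-coding genes it was 1254 and 1259 bp against 951 and 955 bp. In the members the extra width lay on the side of the partner. Peaks over the reference TSS reached a median of 650 and 617 bp before the start with a partner and 414 and 428 bp without one, but 487 and 486 bp against 469 and 484 bp after it.

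**Figure D3:**
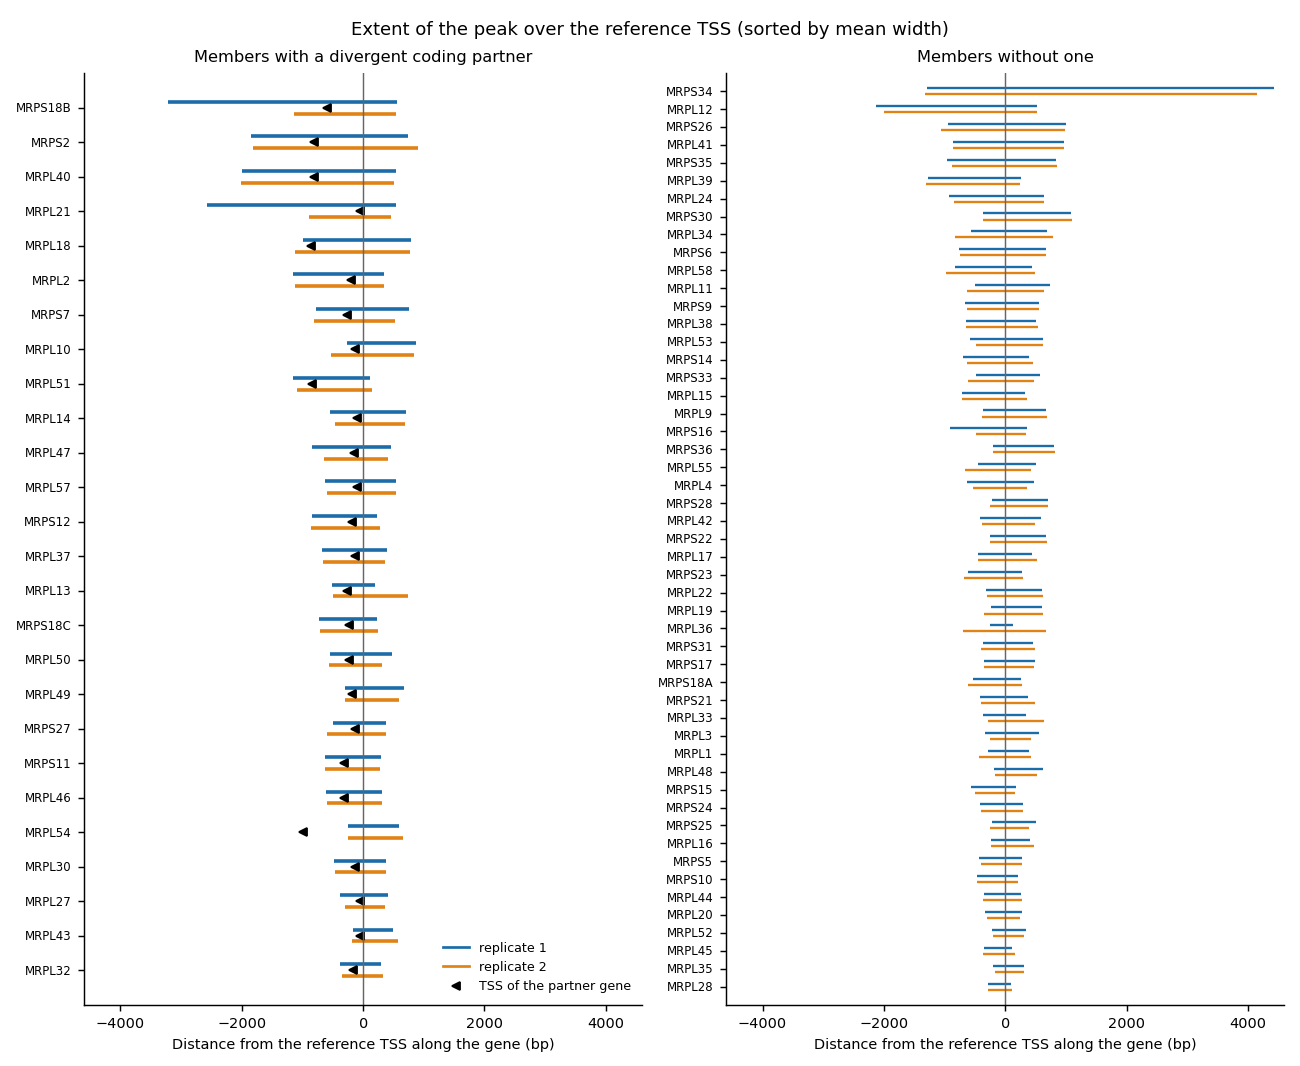
Extent of the peak over the reference TSS of each member with a peak, along the direction of its gene (bp), in replicate 1 (blue) and replicate 2 (orange), sorted by mean width, for the 26 members with a divergent coding partner and the others. Triangles mark the partner's TSS, which lies under the peak in every pair except MRPL54, and the MRPS34 peak runs 4432 and 4152 bp after its start.

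The same asymmetry was seen along the gene. At 500 bp before the reference TSS 73.3% and 66.7% of the members with a divergent partner were under a peak, against 39.6% and 45.8% of the other members and 38.6% and 39.1% of all protein-coding genes. At the start itself the share was 98.7% of members in each replicate and 65.8% and 66.0% of all genes. At 1000 bp after it the order was turned, with 7.7% and 6.4% of members against 20.8% and 21.0% of all genes.

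**Figure D4:**
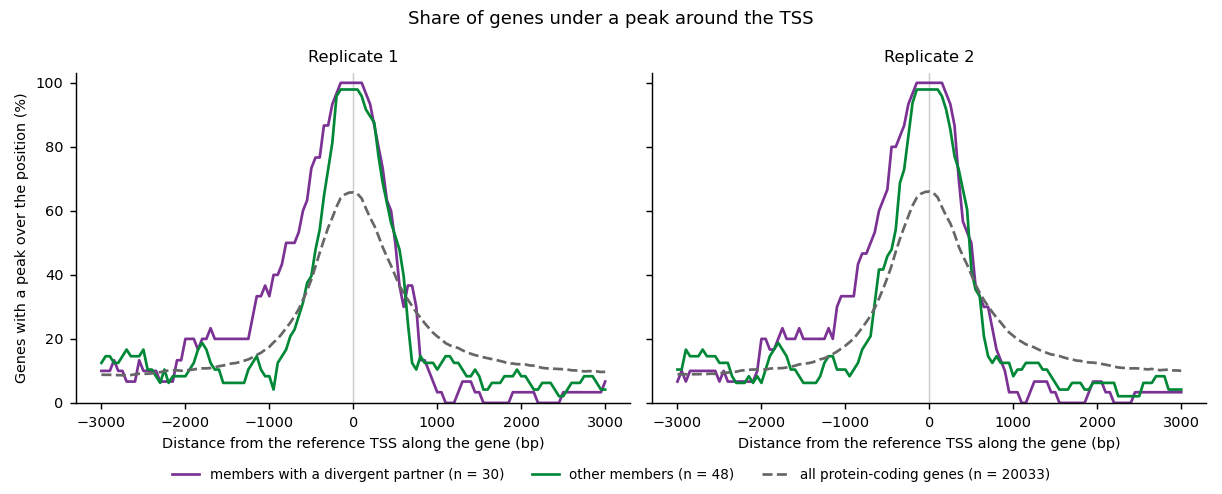
Share of genes (%) with a peak over each position from 3 kb before to 3 kb after the reference TSS, in steps of 50 bp, for members with a divergent partner, other members and all protein-coding genes, 1 panel per replicate. The purple curve is raised before the start, and both member curves fall below the grey curve by 1000 bp after it.

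In 43 of the 77 members with a TSS peak (55.8%) a single one was listed in both replicates, against 33.5% of the 15890 protein-coding genes with a TSS peak in both. Several were listed in both replicates in 26 members (33.8%), against 55.8% of those genes, and no member had more than 4. The strongest peak covered the reference TSS in both replicates in 74 of 77 members (96.1%, against 66.9% of those 15890 genes), the exceptions being MRPL41, MRPS27 and MRPL34.

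In the promoter windows the ETS and YY1 letters stood out. CCGGAAG was found on either strand in 30 of the 69 member promoters (43.5%, 32.4 to 55.2%), against 17.3% of the 12416 protein-coding promoters with a TSS peak in both replicates and 14.8% of all 15343. AAGATGGC was found in 21 (30.4%, 20.8 to 42.1%), against 4.88% and 4.15%. At least one of them was present in 43 members (62.3%, 50.5 to 72.8%), against 21.0% of open promoters, and both were present in MRPL20, MRPL38, MRPL47, MRPL51, MRPL52, MRPS10, MRPS12 and MRPS18A (11.6% against 1.17%). The difference was seen with the full 7 letters and not with a shorter core. The inner letters GGAAG alone were found in 78.3% of member promoters and 74.0% of all promoters. A match is a description of the sequence and does not show that a factor was bound.

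The matches had preferred places, which open promoters largely shared. Of the 40 ETS matches 32 began from 100 bases before the start onward, 80%, near the 72.5% over open promoters. Their median was 24 bases before the start, against 46 over open promoters. More than 1 ETS match was found in 8 members, among them MRPL27, MRPL20, MRPS21 and MRPS34, a count not compared with open promoters. Of the 22 YY1 matches 16 (72.7%) began at or after the start, with a median of 11 bases after it (10 over open promoters). On the strand of the gene lay 18, as in the MRPL45 and MRPL46 promoters printed above, a count not compared with open promoters. The same place was typical of YY1 matches in open promoters as a whole, where 64.2% began at or after the start.

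The other motifs differed from open promoters by fewer percentage points. The NRF1 core TGCGCA was found in 14 members (20.3%, 12.5 to 31.2%) against 12.4%, and the ACTACAA part of the ZNF143 motif, seen in the MRPL24 and MRPL32 promoters above, in 7 (10.1%, 5.00 to 19.5%) against 3.33%, which as a ratio is larger than that of ETS. The GC box GGGCGG was found in 41 (59.4%, 47.6 to 70.2%) against 69.4%, the CCAAT letters in 20 (29.0%) against 36.3%, the TATAAA letters in 3 (4.35%) against 6.31%, and the E-box CACGTG in 5 (7.25%) against 9.49%. The letters TCTCGCGA were found in 2 members (2.90% against 2.23%) and the cyclic AMP response element TGACGTCA in MRPL4 alone (1.45% against 3.15%). The median G and C content of the windows was 60.3% against 63.7% over all promoters, and the ratio of observed to expected CpG was 0.883 against 0.783.

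**Figure D5:**
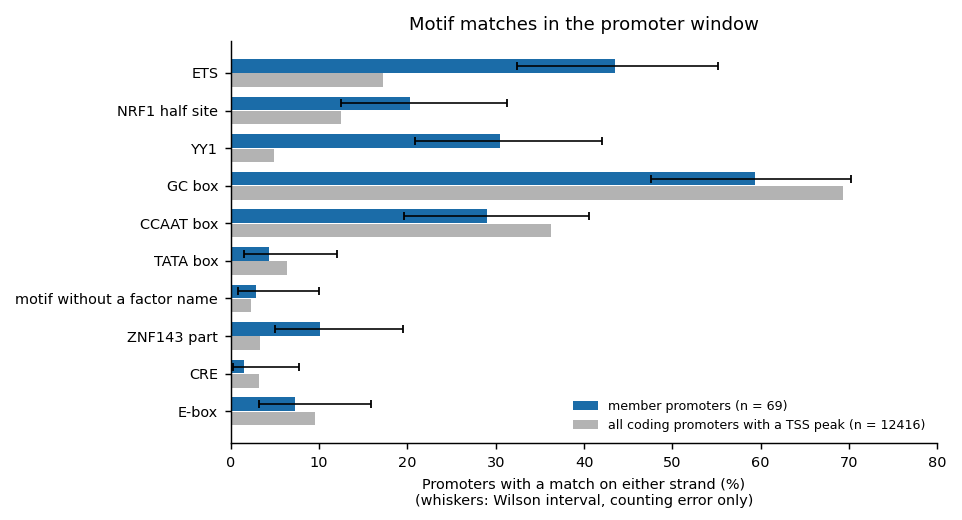
Share of promoter windows (%) with a match to each motif on either strand, for the 69 member promoters (blue, whiskers are 95% Wilson intervals) and the 12416 coding promoters with a TSS peak in both replicates (grey). ETS (43.5% against 17.3%) and YY1 (30.4% against 4.88%) are furthest from the grey bars in percentage points, and the motif labelled as having no factor name is TCTCGCGA.

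The related families carried these letters in other proportions. The ETS letters were found in 33.3% of 69 cytosolic ribosomal protein promoters, 37.1% of 35 proteasome promoters and 17.5% of 40 NDUF promoters. The YY1 letters were found in 10.1%, 11.4% and 20.0%, and the NRF1 core in 18.8%, 14.3% and 30%. Both subunits shared the pattern, with ETS letters in 18 of 42 MRPL and 12 of 27 MRPS promoters and YY1 letters in 13 and 8. Members with the YY1 letters had a median fold enrichment of 95.9 and 87.6, against 56.4 and 63.0 for members without them, while over all promoters with a TSS peak in the replicate the split was 58.2 and 59.0 against 52.2 and 53.5. The 21 genes with them ran from MRPL32 at the top to MRPL45 and MRPL46 at the bottom. The split was not particular to YY1. Members with the CCAAT letters had 91.0 and 91.3 against 54.5 and 56.4 without them (64.0 and 65.0 against 47.2 and 48.9 over all such promoters), and the 7 with the ZNF143 part had 124.9 and 124.1 against 54.4 and 57.9 (72.9 and 74.4 against 51.8 and 53.1). The 14 members with the NRF1 core had 57.1 and 61.0 against 57.5 and 63.2, and the 5 with the E-box had 44.9 and 38.5 against 58.1 and 64.2. For ETS the members had 58.1 and 64.2 with the letters and 54.5 and 53.5 without them.

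Genes of mitochondrial translation, ribosome assembly and transcription outside the family were examined as well. Of 65 genes in 5 lists, 64 were found under their symbol, and all 64 had a TSS peak in both replicates (79.3% over all protein-coding genes), with a median of 61.3 and 60.3. KGD4, the symbol not found, is another name of MRPS36. Median fold enrichment was 79.2 and 77.6 for the 5 mitoribosome proteins without an MRP symbol (such as DAP3 and PTCD3), 77.3 and 80.5 for 17 mitochondrial aminoacyl-tRNA synthetases, 65.1 and 66.1 for 22 genes of ribosome assembly and rRNA modification, 54.8 and 61.7 for 5 genes of mitochondrial transcription, and 44.2 and 45.6 for 15 translation factors. The members, at 55.2 and 62.8, lay inside this spread, as did the cytosolic ribosomal protein genes (65.6 and 63.9), the NDUF genes (65.8 and 60.9) and the proteasome genes (66.4 and 65.8). A coding divergent partner was annotated for 19 of the 64 (29.7%, against 9.46% of all protein-coding genes).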

How the data were processed

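ATAC-seq was analysed from the peak list of each replicate. The authors trimmed reads with Trim Galore 0.6.5, aligned them to hg38 with Bowtie2 2.3.5.1 and called peaks with MACS2 2.2.6 in each replicate, per the submitters' processing notes. The MACS2 settings, the Tn5 shift among them, are not given in the sources used here. The deposited columns hold a score (10 times the −log10 q-value, cut to a whole number), the fold enrichment ratio over background, the −log10 p-value and the −log10 q-value of each peak. Fold enrichment proved to be whole reads plus 1 times a step of 0.230 (replicate 1) and 0.221 (replicate 2), that is, over 1 background value per replicate, which gave summit heights with exact Poisson intervals. Read totals are not part of these lists, so depth is judged from those heights, and duplicates could not be assessed.

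Peaks were assigned to GENCODE 44 TSSs with Python 3.11.15 (pandas 2.3.3, numpy 2.4.6, scipy 1.17.1) and drawn with matplotlib 3.10.9. The scripts were tested on simulated data. Motifs were exact letters on both strands of 300-base windows. Shares carry Wilson intervals. No test was run. The members and lists were chosen with earlier results of these data known. Named in the text were the 10 highest and 10 lowest members, the 5 widest and 5 narrowest, those with the largest replicate ratios, those without a peak and all with a coding partner. The alternatives tried were stricter q-values, other TSS distances and peak choices, other partner definitions, chromosome medians, shorter motifs, and each replicate alone.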

Additional observations from a re-analysis of the deposited data

How the results depend on the processing

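No paired analysis was possible because there is no second condition to pair with. Over 9 results there were 55 alternatives. Of these, 10 leave out a replicate from a mean of both and cannot move beyond the spread by construction. Of the other 45, 33 values stayed within the spread of the replicates (or, for shares from annotation alone, within the Wilson interval), 12 moved further and none changed direction. Some of the 33 could not move either. The stricter q-value (−log10 q of at least 10) removed no TSS peak of a member, since the lowest −log10 q among them was 53.6. Values taken from members alone were therefore fixed under it. The alternatives for the subunit ratio by protein location, TSS distance and nearest peak, 3 in number, were added after seeing the data. Within 3 kb of a TSS the share of members with a TSS peak became 100%, MRPL23 included, against 85.0% of all protein-coding genes. The share of members was 93.6% when the strongest peaks had to share 50% of each other. With the peak nearest to the reference TSS in place of the strongest, the ratio to all genes rose from 1.14 to 1.31. The median width of 957 bp became 969 bp within 100 bp of a TSS and 970.5 bp with a single TSS per gene or with the nearest peak. A partner within 300 bp was found for 28.2% of members (12.9% of all protein-coding genes). The ratio of divergent to other members, 1.06, became 1.02 with coding partners only and 1.13 over chromosome medians. The ratio of MRPL to MRPS, 0.597, became 0.668 over chromosome medians and 0.669 by protein location. The shorter ETS letters were found in 78.3% of member promoters (74.0% of all promoters). Leaving out a replicate gave 55.2 to 62.8 for the median, 1.08 to 1.19 for its ratio, 950 to 964 bp for the width, 1.03 to 1.08 for divergent over other members and 0.581 to 0.614 for the subunits. The causes of these shifts were not tested. Only peaks past the threshold of the caller are listed, so weaker accessibility was not detectable.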

Other observations

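The genome also holds 79 annotated pseudogenes of the MRPL and MRPS genes, most of them processed copies of the coding sequence that carry no promoter of their own. A TSS peak in both replicates was listed for 13 of the 79 (16.5%, 95% Wilson interval 9.88 to 26.1%), against 15.3% of all 15233 annotated pseudogenes. The highest, MRPL42P1, a transcribed copy on chromosome 4, had a fold enrichment of 123.1 in replicate 1 and 117.9 in replicate 2, and its start lies 57 bp from a TSS of the coding gene USP53. The other 12 lay more than 1 kb from a coding TSS. Of these, 6 were in the range of the coding members in both replicates, namely MRPL15P1 (63.5 and 71.9), the unprocessed copies MRPS31P4 (59.4 and 60.8) and MRPS31P5 (38.0 and 41.4), MRPL37P1 (32.0 and 35.4), MRPL35P2 (27.8 and 23.4) and MRPS21P9 (25.5 and 25.4). MRPL15P1 lies only 1047 bp from a TSS of the coding gene MESP1, and its peak was 1724 and 1781 bp wide. The other 6 were below the weakest member in at least 1 replicate, down to MRPL57P3 (5.75 and 7.30).

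Inside the member genes, more than 1 kb from any TSS, peaks were found in 43 of 78 genes (55.1%, against 67.5% of all protein-coding genes), at 6.21 per 100 kb of gene against 7.11. The median gene length was 11940.5 bp in the members and 27471 bp over all protein-coding genes. The shares of genes given here were not adjusted for it. MRPS22, with the longest annotated span of the members (354692 bp), held 21 of the 131 peaks inside member genes. In 9 of the 77 members with a TSS peak (11.7%, against 21.4% of all protein-coding genes with one in both replicates) the strongest of them exceeded the strongest TSS peak of the gene in both replicates. The difference was widest in MRPL45, with 122.2 and 130.5 inside the gene and 19.6 and 18.6 at its TSS, and was also seen in MRPL13 (30.6 and 34.7 inside the gene), MRPS5 (50.2 and 50.4), MRPS22 (86.1 and 94.9), MRPS25 (118.0 and 119.2), MRPS28 (63.3 and 78.9) and MRPS18A (144.3 and 158.5). The MRPS22 peak lay within the annotated span of the gene but before its reference TSS. In MRPL19 and MRPL33 the values inside the gene and at the TSS were close.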
